A study of Mus musculus with 4 samples.

Results

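Muc5b, Muc19 and Smgc are 3 mouse genes whose products belong to saliva. They were taken by gene symbol from the count tables of 4 single-cell libraries of mouse gingiva, the gum around the teeth, and are 3 of 32245 gene symbols counted there (32285 gene identifiers). Their levels were read in gland-like barcodes, in 5 subsets of those barcodes set apart by other gland genes, and as RNA counted in barcodes of other cell types.

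One library was made from each of 4 groups: healthy gingiva, gingiva under metformin treatment, diseased gingiva, and diseased gingiva treated with metformin. Metformin is a drug that lowers blood glucose, and the title of the series names prevention of periodontal disease, the inflammatory loss of the tissue that holds the teeth. The gingiva of the upper jaw was cut out, digested with collagenase and DNase, strained and loaded on the 10x Genomics droplet system. Strain, age and number of mice, the way disease was brought about, the dose of metformin and the end of the transcript that was read are not given in the sources used here. No group had a replicate library, so no test was possible, and every interval below is a 95% interval for counting error alone. Such intervals do not cover differences between mice, between pieces of tissue or between barcodes.

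Mucins are large secreted or membrane proteins covered with sugar chains, and they give saliva its viscosity and its lubricating film. Muc5b is a gel-forming mucin stored in the granules of mucous gland cells and secreted into saliva. Muc19 is a gel-forming mucin of the sublingual gland of the mouse, and Smgc, submandibular gland protein C, is a secreted protein of the neonatal submandibular and of the sublingual gland. Smgc and Muc19 are alternative products of a single locus, made by splicing the same first exon either to the Smgc exons or to the distant mucin exons.

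In the GENCODE vM21 annotation of GRCm38, Smgc (ENSMUSG00000047295) lies at chr15:91838265-91861438 on the plus strand and is protein coding. Muc19 (ENSMUSG00000044021) lies at chr15:91838326-91934555 on the same strand and is annotated there as a processed transcript. Muc5b (ENSMUSG00000066108) lies on another chromosome, at chr7:141839070-141873084, with 49 exons in transcript Muc5b-201. Transcripts Smgc-201 and Muc19-202 start 2 bases apart and share 93 bases of exon 1, which ends at the same base in both. The other 17 of the 18 Smgc exons all fall inside the first intron of Muc19, which is 32051 bases long. None of them overlaps any later one of the 43 Muc19 exons (0 overlaps), and the ends of the transcripts are 73120 bases apart. The next 2 lines give the splice junctions that set the transcripts apart, read from the GENCODE vM21 transcripts. Capitals mark the last 30 bases of the shared exon 1, and lower case the first 30 bases of the exon that follows in each.

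Smgc-201: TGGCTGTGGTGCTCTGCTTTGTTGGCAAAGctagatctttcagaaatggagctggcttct
Muc19-202: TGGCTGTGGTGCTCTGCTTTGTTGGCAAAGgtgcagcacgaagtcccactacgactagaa

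**Figure D1:**
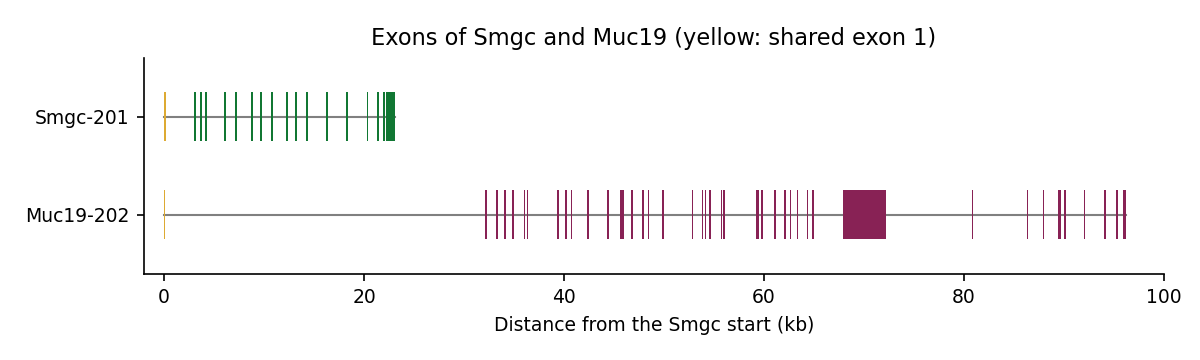
Exons of Smgc-201 and Muc19-202 on 1 axis of distance from the Smgc start, in kb (x axis), with 1 row per transcript. Boxes are exons, and yellow marks the shared exon 1. Short exons are drawn at a minimum width, wider than to scale. The 17 other Smgc exons sit in the first Muc19 intron.

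Because the start of both transcripts lies within 2 bases, the window before it is common to both. The RefSeq promoter table of GRCm38.p6 held a window for 1 of the 3 genes, Smgc. The 250 bases before the start of Smgc-201, chr15:91838078-91838327 on the plus strand, are printed on the next line. The annotated Smgc gene as a whole begins earlier, at base 91838265, so the end of this window, TATAAA included, lies inside the gene and before Smgc-201 and, but for its last 2 bases, Muc19-202. Capitals mark 2 motifs that were searched on both strands. TATAAA, the TATA box, was found once, 30 bases before the start, and TGTTTAC, a motif bound by forkhead factors, once, 99 bases before it. They do not overlap. Of 32851 windows of this length in the table, 12.4% held TATAAA, 3.17% held TGTTTAC and 0.594% held both on either strand. A match is a description of the letters and not a measured binding site.

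Smgc promoter: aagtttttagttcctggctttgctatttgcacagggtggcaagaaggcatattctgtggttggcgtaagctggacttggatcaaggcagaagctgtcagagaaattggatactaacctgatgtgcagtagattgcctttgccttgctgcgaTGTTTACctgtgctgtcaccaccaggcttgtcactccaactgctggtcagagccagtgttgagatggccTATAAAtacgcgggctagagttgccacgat

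The libraries held 12507787 to 22333858 UMIs (unique molecular identifiers, each standing for 1 captured RNA molecule). After filtering, 7134 of 8295 barcodes were kept, and 8 barcode sequences occurred in more than 1 library. Gland-like barcodes numbered 346 in the healthy library, 635 with metformin, 242 in disease and 696 in disease plus metformin. They were called from 15 markers of simple and glandular epithelium that include none of the 3 genes. Of these markers, 15 of 15 were higher in gland-like than in keratinocyte-like barcodes in all 4 libraries. The same markers set the class, so this was largely fixed by that choice and is no check of it. The depth of gland-like barcodes differed widely, with medians of 6883.5, 1454, 13138.5 and 1908 UMIs per barcode in the same order. Barcodes with under 2000 UMIs made up 28.9%, 62.0%, 18.6% and 50.7% of them. Summed keratinocyte markers in gland-like barcodes stood at 226, 1754, 1104 and 848 CPM (UMIs of a gene per 1000000 UMIs of the class). Among the gland-like barcodes under 2000 UMIs they stood at 2272, 11455, 807 and 4143 CPM. The small gland-like barcodes of the libraries with metformin therefore carried more RNA of these keratinocyte markers than those of the healthy and disease libraries.

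Muc5b was the most even of the 3 genes across the libraries in summed gland-like barcodes. In gland-like barcodes it stood at 69375 CPM in the healthy library (interval 69140 to 69612), 68646 with metformin (68442 to 68851), 65071 in disease (64826 to 65316) and 69703 in disease plus metformin (69509 to 69897). Muc5b RNA alone thus held 6.94%, 6.86%, 6.51% and 6.97% of the UMIs of these barcodes. The log2 ratio was -0.09 for disease over healthy, -0.015 for metformin over healthy, 0.10 for disease plus metformin over disease and 0.02 for disease plus metformin over metformin. These sums weight each barcode by its depth. With every barcode weighted equally, Muc5b with metformin was lower than in the healthy library, at a log2 ratio of -0.70, and in barcodes under 2000 UMIs the ratio was -0.75. In barcodes with at least 5000 UMIs it was 0.05, so the direction of this small ratio depended on which barcodes were counted.

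Over all kept barcodes Muc5b stood at 31437, 23390, 21675 and 42522 CPM in the same order of libraries. That order follows the share of kept barcodes that were gland-like, which was 26.5% (24.1 to 29.0) in the healthy library, 25.6% (23.9 to 27.4) with metformin, 14.3% (12.7 to 16.1) in disease and 42.0% (39.6 to 44.4) in disease plus metformin, except that the shares of the healthy and metformin libraries overlapped. From 94.8% to 98.6% of the Muc5b UMIs of each library's kept barcodes lay in the gland-like class.

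Muc19 varied by a little more, and in another order. It stood at 3458 CPM (3406 to 3511) in gland-like barcodes of the healthy library, 2858 (2816 to 2900) with metformin, 4293 (4231 to 4357) in disease and 3102 (3061 to 3143) in disease plus metformin. Disease was the highest and metformin the lowest, and no 2 of the 4 intervals overlapped. The log2 ratios were 0.31 for disease over healthy (interval 0.28 to 0.34), -0.28 for metformin over healthy (-0.31 to -0.24), -0.47 for disease plus metformin over disease (-0.50 to -0.44) and 0.12 for disease plus metformin over metformin (0.09 to 0.15). None of the 4 reached 2-fold, higher or lower. In barcodes under 2000 UMIs the disease ratio was -0.14, the opposite sign. The ratio of metformin over healthy was -1.15 there (-1.36 to -0.93), past 2-fold. With every gland-like barcode weighted equally, metformin over healthy was -0.999.

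Smgc was the gene of the 3 that moved past 2-fold in the summed gland-like barcodes. Its level in gland-like barcodes was 4420 CPM (4361 to 4480) in the healthy library, 1870 (1836 to 1904) with metformin, 1805 (1765 to 1847) in disease and 5896 (5840 to 5953) in disease plus metformin. The metformin library and the disease library were low, with overlapping intervals, and the healthy and the disease plus metformin libraries were high. Disease alone was lower than healthy by a log2 ratio of -1.29 (-1.33 to -1.25), and metformin alone by -1.24 (-1.27 to -1.21). Disease plus metformin was higher than disease by 1.71 (1.67 to 1.74) and higher than metformin by 1.66 (1.63 to 1.69). Each library enters 2 of these 4 ratios, so they are not independent of each other.

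Called at 2-fold or more, 1 of the 3 genes, Smgc, was lower in disease than in healthy gland-like barcodes, where 1.79% of 10695 measured genes were that much lower, and 0 of 3 were higher, against 5.81%. Smgc was also the 1 of 3 that was lower with metformin than healthy, against 1.22% of 11247 genes, and 0 of 3 were higher, against 7.57%. It was the 1 of 3 that was higher in disease plus metformin than in disease (2.96% of 11236 genes higher, 3.62% lower) and than in metformin (1.83% of 11664 genes higher, 4.45% lower), with 0 of 3 lower. The median gene had log2 ratios of 0.19, 0.18, -0.07 and -0.06 in these 4 comparisons.

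The Smgc ratios kept their size in deep barcodes, whose summed keratinocyte markers were 166, 878, 1104 and 653 CPM. In gland-like barcodes with at least 5000 UMIs (198, 177, 180 and 281 barcodes), Smgc stood at 4470, 1917, 1801 and 6019 CPM, with log2 ratios of -1.31, -1.22, 1.74 and 1.65. In barcodes under 2000 UMIs (100, 394, 45 and 353) it stood at 4555, 1412, 2597 and 4982 CPM, with ratios of -0.81, -1.69, 0.94 and 1.82. There, 2 of the 4 fell short of 2-fold, both of them ratios with the disease library. No single barcode held more than 3.02% of the Smgc UMIs of a gland-like class. Over all kept barcodes the ratios were -1.72, -1.64, 2.57 and 2.49, values that also hold the unequal shares of gland-like barcodes.

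Smgc and Muc19 together stood at 7878, 4727, 6099 and 8998 CPM in gland-like barcodes. Of the UMIs of this locus, Smgc held 56.1% (55.6 to 56.6) in the healthy library, 39.5% (39.0 to 40.1) with metformin, 29.6% (29.0 to 30.2) in disease and 65.5% (65.2 to 65.9) in disease plus metformin. This is a share of counted UMIs, with no correction for transcript length, and serves only to compare libraries. It differed between all 4 libraries beyond counting error. The locus sum was lowest with metformin, while the share was lowest in disease. Whether reads in the shared exon 1 were counted to either gene was not tested.

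The difference lay across the barcodes and not in a few of them. Among gland-like barcodes with at least 5000 UMIs and a UMI of the locus, the median Smgc share was 49.5% in the healthy library, with quartiles at 29.7% and 66.2%. It was 28.8% with metformin (21.1% to 48.4%), 23.6% in disease (12.9% to 37.0%) and 56.5% in disease plus metformin (37.0% to 73.2%). The quartile ranges overlapped, least those of disease and of disease plus metformin, which met at 37.0%. Of all gland-like barcodes with at least 5000 UMIs, 99.0%, 96.6%, 92.8% and 98.9% had UMIs of both genes, and 0, 2, 8 and 1 barcodes had neither. Only 2, 1, 2 and 2 barcodes had Smgc without Muc19, and 0, 3, 3 and 0 had Muc19 without Smgc.

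**Figure D2:**
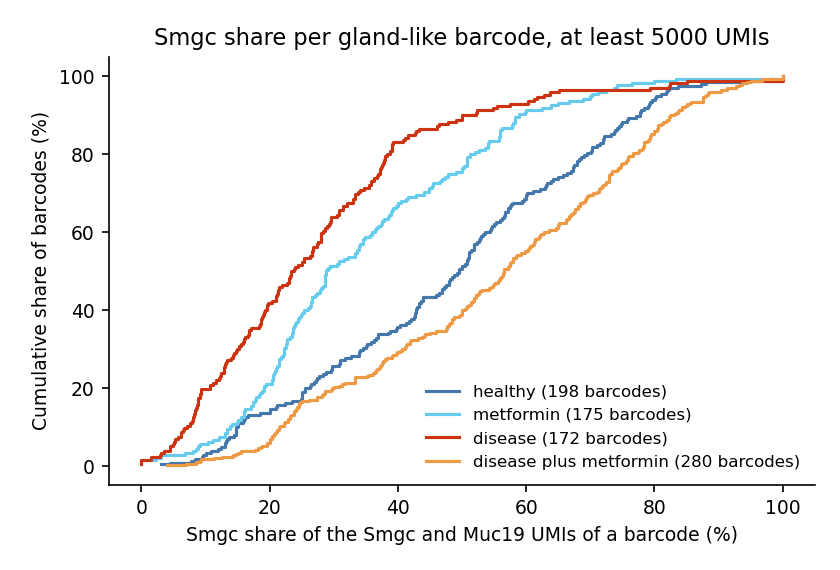
Cumulative share of gland-like barcodes with at least 5000 UMIs (y axis, %) against the Smgc share of the Smgc and Muc19 UMIs of a barcode (x axis, %), with 1 line per library. The medians stand at 49.5% (healthy), 28.8% (metformin), 23.6% (disease) and 56.5% (disease plus metformin). Barcodes of 1 library are not replicates.

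At a fixed depth Smgc was also detected least often in the metformin and disease libraries. Each gland-like barcode with at least 1000 UMIs was thinned to 1000, which left out 69, 240, 26 and 212 shallower barcodes. The expected share of barcodes with a Smgc UMI was then 84.7%, 65.2%, 67.2% and 91.0%, against 97.1%, 85.6%, 90.7% and 98.1% unthinned. For Muc19 it was 85.8%, 74.9%, 86.4% and 83.4%, and for Muc5b 98.9%, 98.9%, 94.3% and 99.0%. Muc19 and Smgc were expected in the same thinned barcode in 74.2%, 50.3%, 61.3% and 76.7% of cases, close to the products of their separate shares, 72.7%, 48.8%, 58.1% and 75.9%.

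Gland-like barcodes were next split by genes other than the 3, and each subset is called by its genes. The Spink4 gate rests on Spink4 and Wfdc12, which encode small secreted proteins, and the Ptprn2 gate on Ptprn2, a protein of secretory granules, and Kcnma1, a potassium channel. The Tff2 gate rests on the trefoil peptide Tff2. The Dcpp gate rests on Dcpp1, Dcpp2, Dcpp3 and Bpifa2, secreted proteins of serous saliva, and the Bpifb1 gate on Bpifb1, Sbpl and Sbp. Of 1919 gland-like barcodes, 349 lay near the line between 2 gates. The disease library had 0 barcodes in the Dcpp gate and 10 in the Bpifb1 gate, and disease plus metformin had 5 in the latter. These gates were left out there because fewer than 20 barcodes were found.

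In each of the main gates Smgc was higher in the healthy and the disease plus metformin libraries than in the other two. In the Tff2 gate it stood at 6187, 2081, 2757 and 7173 CPM (healthy, metformin, disease, disease plus metformin), and in the Spink4 gate at 6033, 1805, 2095 and 6600. Its levels in the Ptprn2 gate were 3037, 1704, 1036 and 3794. In all 3 gates, disease plus metformin was the highest and healthy the next. The log2 ratio of disease plus metformin over disease was 1.38 in the Tff2 gate, 1.66 in the Spink4 gate and 1.87 in the Ptprn2 gate. In the Dcpp gate Smgc was 2162 CPM in the healthy library, 959 with metformin and 4000 in disease plus metformin. In the Bpifb1 gate it was 2469 and 2052 CPM in the healthy and metformin libraries, a log2 ratio of -0.27. The gate genes themselves were unlike there, with Bpifb1 at 20868 and 321 CPM and Sbpl at 61151 and 16543 CPM in these libraries. Serous products took 305079 CPM of that gate in the healthy and 2127 in the metformin library, so the totals behind these levels were unlike, and with every barcode weighted equally the ratio was -1.58. Within each library Smgc was highest in the Tff2 gate and lowest in the Ptprn2 gate of these main 3. The healthy intervals of the Tff2 and Spink4 gates overlapped, as did the metformin intervals of the Spink4 and Ptprn2 gates. In the metformin library 1 barcode held 24.1% of the Smgc UMIs of the Ptprn2 gate and 1 held 19.2% of those of the Tff2 gate. Without them Smgc with metformin stood at 1409 CPM in the Ptprn2 gate and 1904 in the Tff2 gate. The log2 ratio of metformin over healthy in the Ptprn2 gate was -0.83 with every barcode and -1.02 without the top barcode of each library, past 2-fold. With a gate share of at least 2 times the mean over barcodes, in place of 1, it was -0.017, with 1788 CPM in the healthy and 1768 in the metformin library, so in that stricter gate these libraries hardly differed.

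Muc5b and Muc19 followed another order of gates. Muc5b in the Ptprn2 gate stood at 97882, 66419, 97370 and 85938 CPM, against 67800, 75422, 63444 and 73947 in the Spink4 gate and 64304, 67254, 67038 and 64575 in the Tff2 gate. Of these main 3 gates Muc5b was thus highest in the Ptprn2 gate in 3 of 4 libraries. With metformin it was highest in the Spink4 gate, and the order of the other two turned without the top barcode, to 66673 CPM in the Ptprn2 gate and 64727 in the Tff2 gate. Muc19 in the Ptprn2 gate stood at 5461, 2909, 5478 and 4203 CPM, highest of the main 3 gates in the same 3 libraries. In the Spink4 gate Muc19 was 2825, 3117, 4524 and 3182 CPM, and in the Tff2 gate 3299, 2666, 4766 and 2843. In the Dcpp gate both genes were low, with Muc5b at 46629, 46040 and 40624 CPM and Muc19 at 2022, 1694 and 1482 CPM in the 3 libraries that had it. Serous products took up a large part of the UMIs of that gate, with 396347, 174213 and 184288 CPM, so other genes hold a smaller share there by construction.

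**Figure D3:**
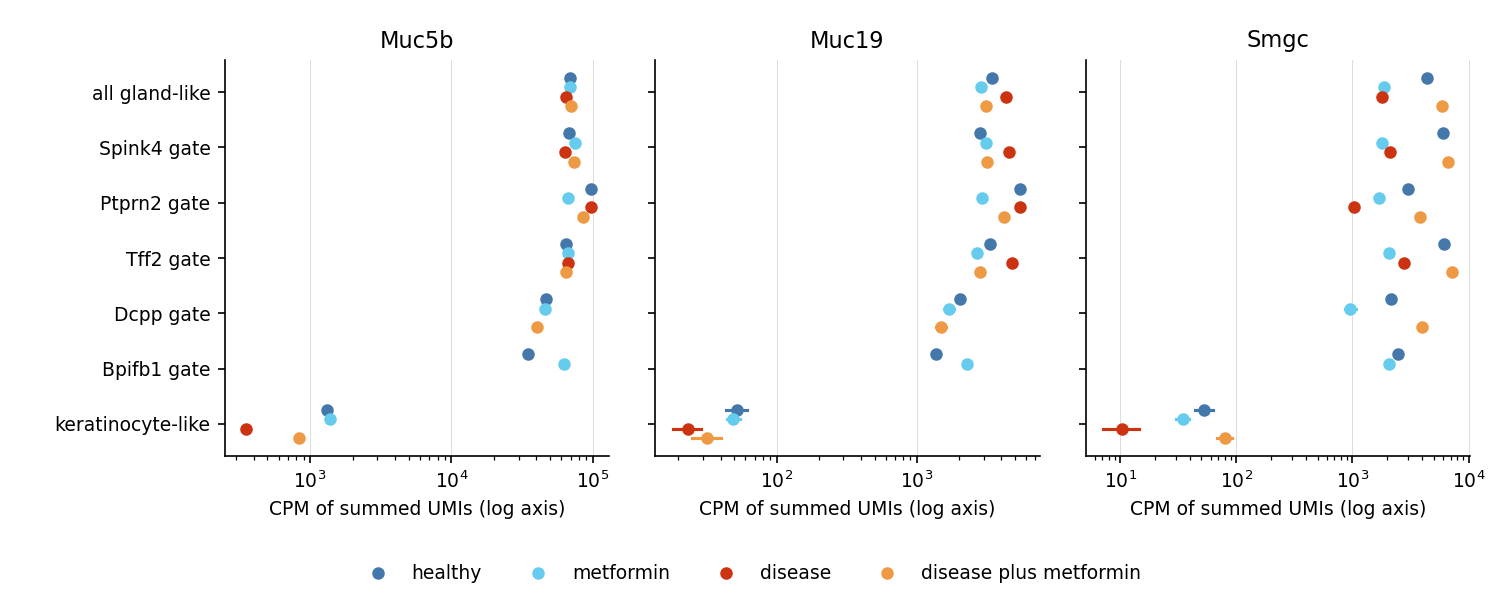
Level of Muc5b, Muc19 and Smgc (1 panel each) in CPM of summed UMIs on a log x axis, by gate or class (y axis) and library (colour). Points are single libraries, bars are 95% Poisson intervals for counting error, and gates with fewer than 20 barcodes are left out. In the all gland-like row Smgc spans 1805 to 5896 CPM, while Muc5b spans 65071 to 69703.

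Across single deep gland-like barcodes Muc5b and Muc19 went together, and Smgc followed them less closely. Spearman's rho between Muc5b and Muc19 CPM was 0.62, 0.57, 0.65 and 0.56 in the 4 libraries (198, 177, 180 and 281 barcodes). Between Muc5b and Smgc it was -0.22, -0.23, -0.25 and -0.42, and between Muc19 and Smgc 0.02, 0.15, 0.10 and -0.11. By Pearson's r of log values Smgc was closer to both, and the libraries differed more. This r was 0.03, 0.28, 0.59 and 0.04 between Muc5b and Smgc, 0.14, 0.36, 0.60 and 0.23 between Muc19 and Smgc, and 0.82, 0.80, 0.94 and 0.77 between Muc5b and Muc19. By rank Smgc went more with Tff2, at 0.74, 0.69 and 0.57 in the healthy, disease and disease plus metformin libraries, but at 0.01 with metformin. Its rho with Agr2, the protein disulfide isomerase that folds mucins and 1 of the 15 gland markers, was 0.63, 0.62, 0.61 and 0.54. Barcodes of a library share their preparation and their free RNA, and the genes of a barcode share a total, so these values are descriptions. Without Muc5b and Tff2 in that total, rho between Muc5b and Smgc was -0.13, -0.20, -0.17 and -0.36, and that between Muc5b and Muc19 0.64, 0.63, 0.68 and 0.56.

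**Figure D4:**
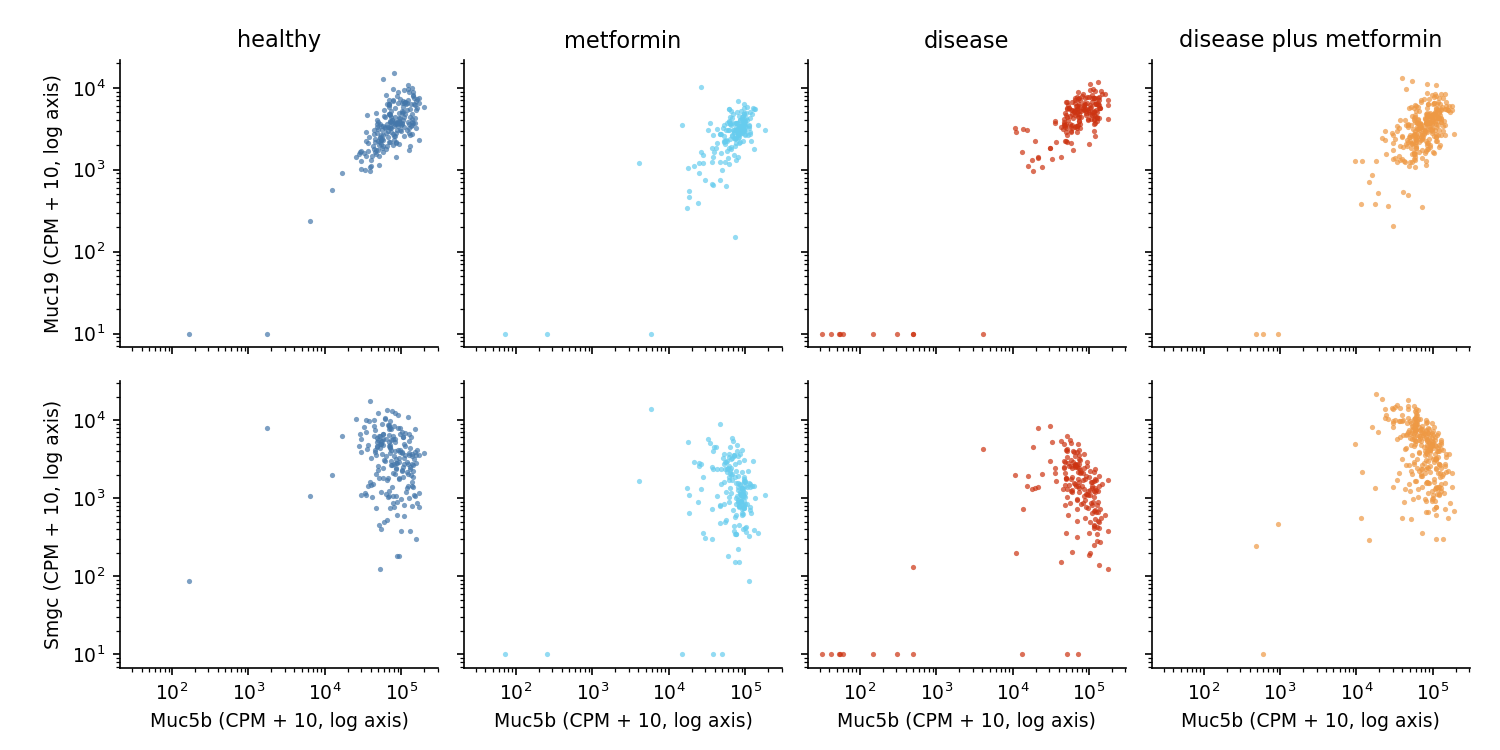
Muc19 (upper row) and Smgc (lower row) against Muc5b in gland-like barcodes with at least 5000 UMIs, as CPM + 10 on log axes, with 1 panel per library and 1 point per barcode (198, 177, 180 and 281). Muc19 climbs with Muc5b in each library, and Smgc spreads widely at any Muc5b level. The points at 10 are barcodes with no UMI of the gene on the y axis.

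Muc5b was counted in nearly every kind of barcode. Keratinocyte-like barcodes were called from markers of stratified epithelium, and whether some also held gland cells was not tested. Among them, 84.9%, 71.2%, 71.0% and 80.8% had a Muc5b UMI, at median depths of 1155.5, 2217, 1333 and 1567 UMIs. In gland-like barcodes the shares were 98.6%, 99.7%, 98.8% and 99.0%. A Muc5b UMI by itself therefore did not set gland-like barcodes apart. The source of the Muc5b UMIs in other classes was not tested. The number per barcode was low, with medians of 2, 1, 1 and 2 Muc5b UMIs in keratinocyte-like barcodes against 563.5, 51, 1016.5 and 142.5 in gland-like ones. The median was 2, 1, 1 and 2 in keratinocyte-like barcodes under 2000 UMIs and 2, 2, 2 and 2 in those with at least 5000, and the Muc5b CPM of the deeper ones was lower, at 777, 1155, 68.8 and 394 against 4272, 3138, 1496 and 2440. The means rose more than the medians, from 4.16, 3.16, 1.55 and 2.56 UMIs per barcode to 23.9, 22.8, 1.72 and 8.79. Of the Muc5b UMIs of the deeper barcodes, 1 barcode held 88.5% in the healthy library, 13.6% with metformin, 3.31% in disease and 46.7% in disease plus metformin. With metformin 17.8% of the deeper keratinocyte-like barcodes had UMIs of both Smgc and Muc19, against 3.12% of those under 2000 UMIs. In the healthy library 1 keratinocyte-like barcode held 37.8% of the Muc5b UMIs of that class.

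Smgc UMIs were found in 14.2%, 13.1%, 4.20% and 23.2% of keratinocyte-like barcodes, and Muc19 UMIs in 11.8%, 15.4%, 9.62% and 10.4%. Endothelial-like, fibroblast-like and leukocyte-like barcodes were few, at 184, 186 and 134 in all, and 55.1% to 100% of them in a library had a Muc5b UMI. In 83 fibroblast-like barcodes of the disease library 0 had a Smgc UMI, which allows a share of up to 4.35% by the exact interval. In 24 endothelial-like barcodes of disease plus metformin 0 had a Muc19 UMI, which allows up to 14.2%.

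Set against Muc5b, keratinocyte-like barcodes held Smgc and Muc19 in the order of libraries of the gland-like ones, with parts of that order within counting error. Per 100 Muc5b UMIs, gland-like barcodes held 6.37, 2.72, 2.77 and 8.46 Smgc UMIs, and keratinocyte-like barcodes 3.97 (3.31 to 4.72), 2.49 (2.18 to 2.84), 2.93 (2.01 to 4.14) and 9.49 (8.10 to 11.1). The keratinocyte-like interval of disease overlapped those of healthy and of metformin, so only disease plus metformin over the others and healthy over metformin lay beyond counting error there. The keratinocyte-like interval held the gland-like value in 3 libraries and lay below it in the healthy one. In the healthy library a single barcode held a large part of the keratinocyte-like Muc5b UMIs, as given above. The healthy values per 100 Muc5b UMIs therefore lean on that barcode, which the intervals do not cover. For Muc19 the gland-like values were 4.98, 4.16, 6.60 and 4.45 per 100 Muc5b UMIs and the keratinocyte-like ones 3.94 (3.28 to 4.68), 3.54 (3.16 to 3.95), 6.57 (5.12 to 8.32) and 3.85 (3.00 to 4.86). Disease was the highest in both, the other 3 keratinocyte-like intervals overlapped each other, and the interval held the gland-like value in the disease and the disease plus metformin libraries. The Smgc share of the locus in keratinocyte-like barcodes was 50.2% (44.0 to 56.4), 41.3% (37.3 to 45.5), 30.8% (22.3 to 40.5) and 71.1% (65.1 to 76.6). This was the same order as in gland-like ones, but the metformin interval overlapped those of healthy and of disease. Under 2000 UMIs it was 57.9%, 43.3%, 36.0% and 70.4%, and intervals next to each other in size overlapped. With at least 5000 UMIs it was 36.1%, 41.4%, 12.5% and 64.3%. There healthy was below metformin, with overlapping intervals, and the disease share rested on 8 UMIs. Barcodes of no family did not keep the gland-like order, with 2.70, 3.05, 1.29 and 4.47 Smgc UMIs per 100 Muc5b UMIs. Dcpp1 showed no such match, with 65.6, 15.0, 5.37 and 11.3 UMIs per 100 Muc5b UMIs in gland-like barcodes and 77.9, 232, 2.49 and 238 in keratinocyte-like ones.

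**Figure D5:**
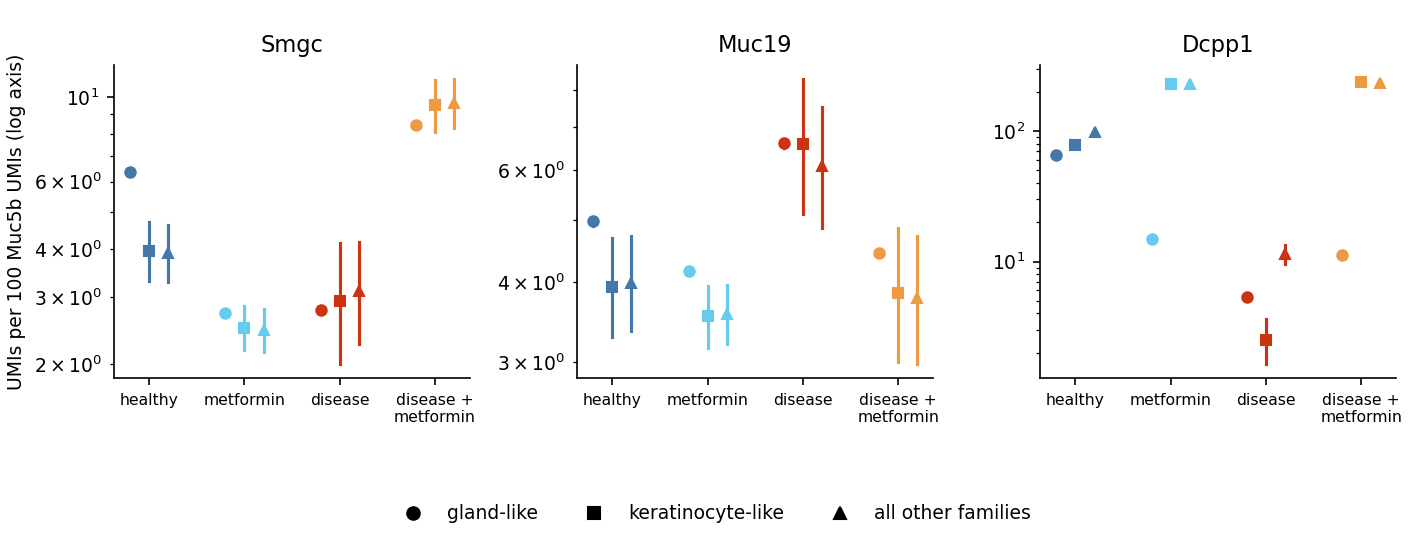
UMIs of Smgc, Muc19 and Dcpp1 (1 panel each) per 100 Muc5b UMIs, on a log y axis, by library (x axis), in gland-like (circles), keratinocyte-like (squares) and all other named families pooled, keratinocyte-like included (triangles). Bars are 95% intervals for counting error. The points of Smgc and Muc19 keep the order of libraries in all 3 sets of barcodes, some with overlapping bars, and those of Dcpp1 do not.

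The genes whose levels were most like those of each mucin were ranked over 17 sums, each of 1 gate in 1 library, by Pearson's r of log2(CPM + 10) among 7281 genes. For Muc5b they were Galnt4 (r 0.96) and Galnt6 (0.94), both enzymes that start O-linked sugar chains, then Mfsd4a (0.94), a transporter-like membrane protein, Atp9a (0.94), a lipid flippase, and Slc39a7 (0.93), a zinc transporter of the secretory pathway. For Muc19 they were Galnt6 (0.92), Mfsd4a (0.92), Nploc4 (0.91), Slc39a7 (0.90) and Creb3l1 (0.90), a transcription factor of secretory cells. Muc5b and Muc19 had an r of 0.90 with each other. Smgc had an r of 0.05 with Muc5b and 0.03 with Muc19. Its nearest genes were H2-D1 (0.88), a class I antigen-presenting chain, Glo1 (0.85), a detoxifying enzyme, Pim3 (0.80), a kinase, Zbp1 (0.80), a nucleic acid sensor, and Ypel3 (0.79). H2-D1 stood at 379, 283, 315 and 517 CPM in gland-like barcodes, in the order of libraries that Smgc showed except that disease was above metformin. The sums share libraries, so no test was attached. They include gates rich in serous products, such as the healthy Dcpp gate at 396347 CPM, where other genes hold a smaller share by construction. Dcpp1 had an r of -0.69 with Muc5b, -0.83 with Muc19 and -0.27 with Smgc over the sums. How far this shared total sets the likeness between genes was not tested. By Spearman's correlation Galnt4 stayed first for Muc5b, Galnt6 first for Muc19 and H2-D1 first for Smgc, while Galnt6 fell to rank 51 and Mfsd4a to rank 183 for Muc5b.

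Other mucins were sparse. Of 13 on a list, 5 had at least 50 UMIs in gland-like barcodes. Muc20, a membrane mucin, stood at 22.3, 28.1, 20.6 and 28.4 CPM, and Muc5ac, the gel-forming neighbour of Muc5b on the chromosome, at 11.7, 13.7, 13.6 and 13.9. The membrane mucin Muc4 stood at 8.34, 28.1, 16.3 and 36.6 CPM. Muc16 and Muc1, also membrane mucins, had 108 and 57 UMIs in all, and single barcodes held up to 66.7% and 68.4% of them in a library. In disease over healthy 1 of 4 compared, Muc1, was 2-fold higher and 0 lower (5.81% and 1.79% of all genes), with a median log2 ratio of 0.59 against 0.19 over all genes, and the barcode with 68.4% of the Muc1 UMIs was in the disease library. With metformin over healthy 2 of 4 were higher and 0 lower (7.57% and 1.22%), with a median of 0.86 against 0.18. In disease plus metformin over disease 2 of 5 were higher and 0 lower (2.96% and 3.62%), with a median of 0.47 against -0.07. The higher ones in both were Muc4 and Muc16.

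Of 20 listed genes for the building of mucin sugar chains, 18 had enough UMIs. In disease over healthy 1 of 17 compared was 2-fold higher and 0 lower (5.81% and 1.79% of all genes), with a median log2 ratio of 0.09 against 0.19 over all genes. With metformin over healthy 2 of 18 were higher and 0 lower (7.57% and 1.22%), with a median of -0.05 against 0.18. In disease plus metformin over disease 1 of 18 was higher and 2 lower (2.96% and 3.62%), with a median of -0.09 against -0.07. St6galnac2, a sialyltransferase, was the higher one in disease and 1 of the 2 with metformin, at 41.3, 164, 94.1 and 170 CPM. The other was St6galnac1, also a sialyltransferase, with 1, 40, 9 and 20 UMIs in the 4 libraries. Galnt7, which extends partly glycosylated mucin stretches, stood at 475, 438, 729 and 331 CPM, highest in disease as Muc19 was, and its log2 ratio of disease plus metformin over disease was -1.14. Galnt6 stood at 435, 417, 462 and 465 CPM and Galnt4 at 187, 182, 179 and 195, a little less even than Muc5b. C1galt1, which makes the core 1 sugar chain, stood at 290, 238, 322 and 280 CPM.

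Of 26 listed mucous cell regulators and genes of the secretory machinery, 22 were measured. In disease over healthy 1 was 2-fold higher and 1 lower (5.81% and 1.79% of all genes), with a median log2 ratio of 0.14. With metformin over healthy 1 was higher and 1 lower (7.57% and 1.22%), at a median of 0.05. In disease plus metformin over disease 0 were higher and 2 lower (2.96% and 3.62%), at a median of -0.04. Tff2, a mucin partner peptide, stood at 85571, 69042, 82418 and 103969 CPM, and Bpifb2 at 26438, 27233, 24382 and 25296. Agr2 stood at 9413, 12764, 12781 and 11675 CPM. The gene that was lower in all 3 comparisons was Bpifb1, at 2514, 42.9, 417 and 51.0 CPM, of which single barcodes held 57.3%, 67.4%, 52.2% and 32.1%. Tff1, a trefoil peptide, was the higher one in disease and with metformin and the other lower one in disease plus metformin, at 3.96, 18.3, 38.3 and 6.45 CPM.

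Markers of other gland cells differed more between the libraries than the mucins did, and their part in the Smgc result was not tested. Of 7 measured serous products, 5 were 2-fold lower in disease than healthy and 0 higher (1.79% and 5.81% of all genes), with a median log2 ratio of -3.70. With metformin over healthy 6 of 6 compared were lower and 0 higher (1.22% and 7.57%), at a median of -2.05. In disease plus metformin over disease 1 of 7 was lower and 2 higher (3.62% and 2.96%), at a median of -0.34. Dcpp1 stood at 45545, 10273, 3496 and 7887 CPM, and single barcodes held 24.9%, 4.96%, 52.3% and 26.1% of it. Summed serous products were 77118, 17708, 5790 and 11621 CPM in gland-like barcodes. Of 4 duct markers 3 were higher in disease than healthy (5.81% of all genes). With metformin over healthy 1 of 4 was higher (7.57%), and in disease plus metformin over disease 1 of 4 was lower (3.62%). Their summed levels were 59.0, 97.7, 275 and 130 CPM. In disease, Krt19, a keratin of simple epithelium, made up 198 CPM of the sum, and 1 barcode held 53.0% of its UMIs. The duct genes Foxi1 and Slc26a4 and the kallikrein Klk1b22 were at 0 in all 4 libraries. Myoepithelial markers, 5 measured of 6, stood at 55.1, 126, 345 and 27.9 CPM summed, and 4 of 5 were higher in disease than healthy (5.81% of all genes). With metformin over healthy 3 of 5 were higher (7.57%), and in disease plus metformin over disease 5 of 5 were lower (3.62%). Single barcodes held 39.9% of the disease UMIs of Acta2, 34.0% of Tagln, 63.2% of Mylk and 54.5% of Cnn1, all genes of the contractile apparatus. Oxtr was at 0 in all 4 libraries.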

How the data were processed

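Single-cell RNA was counted in 4 gingiva libraries, 1 per group. The authors ran bcl2fastq and Cell Ranger 7.0.1 with the build mm10, per the submitters' processing notes, and deposited raw counts of UMIs for each gene in each called barcode. The annotation, any counting of introns and the 10x chemistry are not given in the sources used here. Genes under the 38 symbols shared by several identifiers were summed.

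Barcodes needed 200 or more genes, and no more than 20% of their UMIs could be mitochondrial. A family was given where the share of its markers, scaled to the mean over barcodes, was at least 1 with 3 or more markers found. Where a second family scored at least 0.5 of the first, the barcode was set apart as mixed (72), and no doublet caller was run. Gates within gland-like barcodes needed a scaled share of at least 1 and 2 or more UMIs. Counts were summed per class and library and given as CPM with exact Poisson intervals. Shares have exact Clopper-Pearson and ratios conditional exact binomial intervals, all at 95%. A ratio needed at least 20 UMIs. Besides the 3 genes, up to 6 members of each list with the most UMIs, the genes of the gates and the 5 genes most like each member were named. Tff1, St6galnac1, St6galnac2 and the list members at 0 were named after their values were seen. The members and lists were chosen with earlier results of these data known. The ratio step was tested on simulated Poisson counts, which hold no spread between barcodes or animals. For likeness, only the ranking by correlation was tried, on random values with a planted partner. Python 3.11.15, NumPy 2.4.6, SciPy 1.17.1 and Matplotlib 3.10.9 were used.

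Alternatives changed the barcode filter, the marker minimum, mixed barcodes, the weights, the top barcode, the denominator, the depth, the gate score, the pseudocount and the correlation. The limits of 5000 and 2000 UMIs and the denominator without Muc5b and Tff2 were added after seeing the data.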

Additional observations from a re-analysis of the deposited data

Results flagged for a closer look

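The libraries with metformin differed from their partners in opposite directions in healthy and diseased gingiva for several values. Each number here is the log2 ratio of disease plus metformin over disease minus that of metformin over healthy. The difference was not tested, because each group was 1 library. For Smgc it was 4.21 over all kept barcodes, 2.95 in gland-like barcodes, 3.40 in the Spink4 gate, 2.71 in the Ptprn2 gate and 2.95 in the Tff2 gate, with metformin lower than healthy and disease plus metformin higher than disease each time. For Muc5b it was 1.40 over all kept barcodes, 0.11 in gland-like barcodes and -0.12 in the Tff2 gate. With every barcode weighted equally, Muc5b in the Tff2 gate had log2 ratios of -1.03 for metformin over healthy and 0.25 for disease plus metformin over disease, the reverse of 0.06 and -0.05. For Muc19 it was 1.13 over all kept barcodes and -0.65 in the Spink4 gate. With equal weights the Muc19 ratios in the Spink4 gate were -0.31 and -0.55, no longer opposite. Over all kept barcodes the share of gland-like barcodes was 42.0% in disease plus metformin against 14.3% in disease, and 25.6% with metformin against 26.5% healthy, where the intervals overlapped.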

How the results depend on the processing

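No paired analysis was possible because each group had 1 library. Of 93 log2 ratios of the 3 genes, 31 passed 2-fold, and 0 of those changed sign under the alternatives run. Among 627 recomputed ratios there were 46 changes of sign, 31 of Muc5b, 14 of Muc19 and 1 of Smgc, the last in keratinocyte-like barcodes. Smgc over all kept barcodes, gland-like barcodes and gates kept its sign in 161 of 161, but not its size: metformin over healthy ranged from -1.02 to -0.017 in the Ptprn2 gate (-0.83 as reported), from -2.42 to -0.95 in the Tff2 gate (-1.57) and from -1.58 to -0.22 in the Bpifb1 gate (-0.27). The cause of a moved value was not tested. The values below are log2 ratios in gland-like barcodes, in the order disease over healthy, metformin over healthy, disease plus metformin over disease, disease plus metformin over metformin, where they moved beyond the counting interval. With every barcode weighted equally they were -0.26, -0.70, 0.059 and 0.50 for Muc5b, 0.22, -0.999, -0.60 and 0.62 for Muc19 and -1.08, -1.40, 1.38 and 1.70 for Smgc. In barcodes under 2000 UMIs they were -0.81, -0.75, 0.58 and 0.52 for Muc5b, -0.14, -1.15, -0.40 and 0.60 for Muc19 and -0.81, -1.69, 0.94 and 1.82 for Smgc. In barcodes with at least 5000 UMIs the Muc5b ratios were -0.071 (disease over healthy), 0.049 (metformin over healthy) and -0.026 (disease plus metformin over metformin), and the Muc19 ratios -0.22 and 0.075 in the latter comparisons. With the stricter filter (at least 500 genes, at most 10% mitochondrial UMIs) they were -0.021, 0.037, 0.033 and -0.025 for Muc5b, 0.39, -0.21, -0.54 and 0.056 for Muc19, and the Smgc ratio of disease plus metformin over disease was 1.67. Without serous products in the denominator they were -0.20, -0.11, 0.11 and 0.013 for Muc5b, the first 2 were 0.20 and -0.37 for Muc19 and -1.40 and -1.33 for Smgc. With at least 5 markers per family the last 3 Muc5b ratios were 0.0028, 0.11 and 0.00827. With mixed barcodes given to their highest family the Muc5b ratios of metformin over healthy and disease plus metformin over metformin were -0.023 and 0.032, and in barcodes with Malat1 and mitochondrial UMIs that of disease over healthy was -0.084. The choice of barcodes thus set the direction of the Muc5b ratios of metformin over healthy, with the reported sign in 6 of 9 alternatives, and of disease plus metformin over metformin, in 7 of 9. The other two Muc5b ratios kept their sign in 9 of 9. Depth limits what is said of small barcodes: 62.0% of gland-like barcodes with metformin had under 2000 UMIs, and counting intervals do not hold the spread between animals.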

Other observations

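Barcodes that met no family numbered 322, 638, 497 and 353 in the healthy, metformin, disease and disease plus metformin libraries. In them Smgc held 24.2% (20.7 to 27.9), 40.9% (37.3 to 44.6), 21.2% (15.0 to 28.6) and 34.3% (31.5 to 37.1) of the Smgc and Muc19 UMIs. In the healthy and the disease plus metformin libraries these shares lay below those of both gland-like and keratinocyte-like barcodes, and Dcpp1 in these barcodes reached 3459 and 1043 UMIs per 100 Muc5b UMIs. Barcodes removed by the filter showed shares of 24.9% (19.7 to 30.7), 16.8% (12.8 to 21.5), 11.8% (6.76 to 18.7) and 31.1% (26.8 to 35.8). The Smgc share was thus lower in barcodes with few genes or many mitochondrial UMIs than in gland-like barcodes of the same library in 4 of 4 libraries.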
